A study of Rattus norvegicus with 3 samples.

Results

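Genes that control cell death and entry into the cell cycle were followed across an allylamine dose series in rat thoracic aorta. The set was the p53 ubiquitin ligase Mdm2, the stress pseudokinase Trib3, the caspase activator Diablo, the mitochondrial apoptosis regulators Bad, Bax and Bcl2, and cyclin D1 (Ccnd1). They were listed by function, and some were chosen by their lower values at the high dose, so their differences are a description and carry no test. Every probe set that the platform annotation gives to exactly 1 of these symbols was taken. This found 17 probe sets for 6 of the 7 genes, of 7006 probe sets for 4736 genes in all. The 3 probe sets that name Bax name a second gene as well, so Bax was not analysed here.

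Total RNA from Sprague Dawley rats was hybridised to oligonucleotide arrays, 3 in all and 1 per group. One group received water at 1 ml/kg, another allylamine at 35 mg/kg and the last allylamine at 70 mg/kg, each for 20 days. The sources used here do not give the sex, age, route of dosing or number of rats behind each array. Allylamine is an amine that injures arteries; amine oxidase in vascular smooth muscle turns it into the reactive aldehyde acrolein, and the dose response of the aorta was the subject of the series. With 1 array per group no value has a replicate check or a p-value, and precision is limited by the number of arrays.

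Cells commit to death through mitochondria when pro-apoptotic relatives of Bcl2, among them Bax and Bad, overcome the restraint of Bcl2 itself. Mitochondria then release cytochrome c, which builds the platform that activates caspases, and Diablo (Smac), which lifts the block that inhibitor of apoptosis proteins place on them. The transcription factor p53 induces Bax and also its own ubiquitin ligase Mdm2, which forms a feedback loop. Trib3 is induced by the stress factors ATF4 and CHOP and binds the survival kinase Akt, which phosphorylates both Bad and Mdm2. Cyclin D1 binds the kinases that carry a cell through G1, and its transcription follows growth signals.

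Values are intensities on a linear scale, each array scaled to a common median of 267. An intensity of 188, the 40th percentile of all scaled values, served as a floor below which values have no order. A probe set was called measured in a comparison if both of its values exceeded the floor. A gene's difference was the median log2 difference of its measured probe sets, and at least 2-fold (a log2 difference of 1) was the rule for higher or lower. Of the 17 probe sets, 11 lay above the floor in the control aorta, 11 at 35 mg/kg and 10 at 70 mg/kg. Above the floor on all 3 arrays were 5, and 2 lay below it on every array.

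At 70 mg/kg, 5 of the 6 genes were at least 2-fold lower than in the control aorta and 0 were higher. Across all 2462 genes measured in this comparison, 23.2% were at least 2-fold lower and 19.7% higher. The median difference was -1.96 for the 6 genes and -0.06 for all genes. The low values at this dose were part of how the genes were chosen, so nothing is read from that contrast. Counted by probe set, with values under the floor raised to it, 9 of the 14 probe sets above the floor on either array were at least 2-fold lower and 0 higher. The same count over all 5409 such probe sets gave 25% lower and 23.8% higher.

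At 35 mg/kg no member measured on both arrays passed the 2-fold rule at the level of the gene. Diablo and Bad fell below the floor at this dose and are left out of that count. By their brighter or only probe set they were at least 5.97-fold and 4.45-fold lower than with water. Only 4 of the genes (Mdm2, Trib3, Bcl2 and Ccnd1) were measured on both arrays, and 0 of these were at least 2-fold higher or lower, against 16.8% higher and 16.3% lower among 2606 genes. Their median difference was 0.30, and that of all genes was 0.04. By probe set, 2 of 14 were at least 2-fold higher and 3 lower, beside 19.3% and 18.6% of 5072 probe sets. Between the doses, 3 of the 4 measured genes (Mdm2, Trib3 and Bcl2) were at least 2-fold lower at 70 than at 35 mg/kg and 0 higher, beside 20.9% and 14.4% of 2459 genes. By probe set these were 8 of 14 lower and 0 higher, beside 22.9% lower and 20.1% higher of 5261. Some members were chosen for low values on the 70 mg/kg array, so nothing is read from the contrast between the doses either. The comparisons with water share the control array, and those involving 70 mg/kg share that array, so they are not independent of one another.

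**Figure D1:**
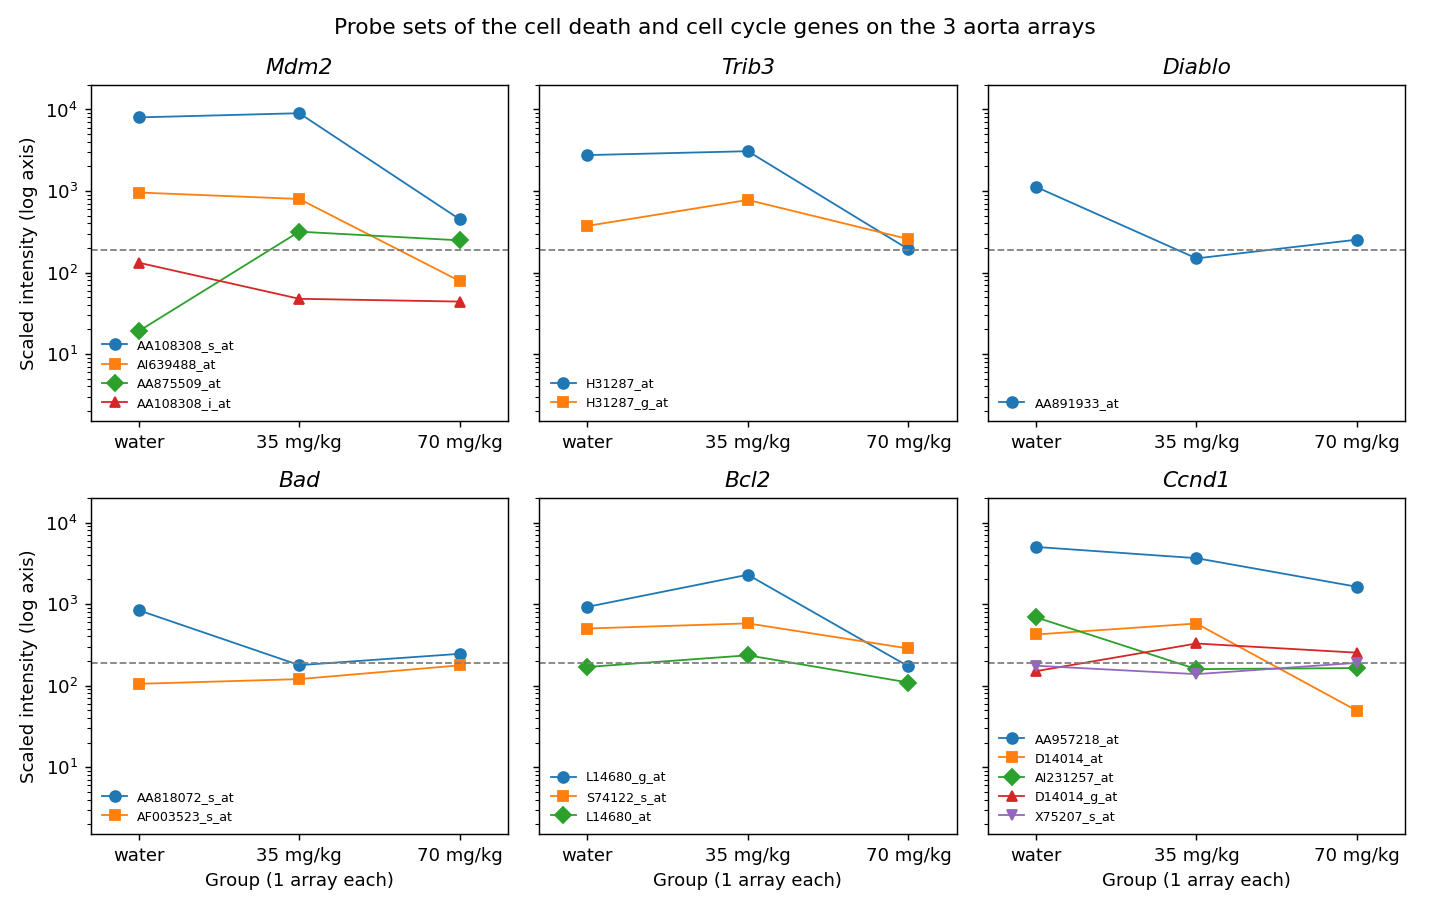
Scaled intensity (log axis) of each probe set of the 6 genes in the water, 35 mg/kg and 70 mg/kg groups, 1 array each; the dashed line is the floor at 188 and lines join values of the same probe set. The brightest Mdm2 and Trib3 probe sets lie within 2-fold of water at 35 mg/kg and low at 70 mg/kg, while the brighter Bad probe set and that of Diablo are already low at 35 mg/kg.

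Mdm2, which marks p53 for degradation, was the member with the largest difference between 70 mg/kg and water. Its brightest probe set (AA108308_s_at) had an intensity of 7992 with water, 8997 at 35 mg/kg and 449 at 70 mg/kg. The water and low-dose values stood close together at the 99.3rd percentile of their arrays, and the high-dose value was far below both, at the 64.6th percentile. The log2 difference was 0.17 at 35 mg/kg and -4.15 at 70 mg/kg, where Mdm2 ranked 9th from the lowest of 2462 genes. A name ending in _s_at marks a probe set that may match several transcripts, and without such probe sets Mdm2 has no measured value at 70 mg/kg.

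A second Mdm2 probe set, from a different sequence (AI639488), was also low at 70 mg/kg only. It read 958 with water, 798 at 35 mg/kg and 78.5 at 70 mg/kg, so the last value lay below the floor and the gene was at least 5.09-fold lower by this probe set. The low-dose difference of this probe set was -0.26, under 2-fold like that of the brightest one but of the opposite sign. The other Mdm2 probe sets did not share the low value. AA875509_at was 19.1 with water, below the floor, and 317 and 248 at the doses. AA108308_i_at lay below the floor throughout, at 132, 47.6 and 44.0, although it stems from the same sequence as the brightest one. Thus 2 of the 4 probe sets of Mdm2 had their low value at 70 mg/kg only, 1 had its low value with water, and 1 gave no measurement.

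Trib3, the pseudokinase that binds Akt, had 2 probe sets, both from the same sequence, which may share probes. The brighter one read 2756 with water, 3077 at 35 mg/kg and 193 at 70 mg/kg. As with Mdm2, water and low dose lay together, and the high-dose value, barely above the floor, lay apart. Its log2 difference was 0.16 at 35 mg/kg and -3.84 at 70 mg/kg. The dimmer probe set read 373, 777 and 257, which is 1.06 above water at 35 mg/kg and -0.54 from it at 70 mg/kg. On this probe set the low-dose array was the highest, and water and high dose differed by less than 2-fold. The gene's median difference was 0.61 at 35 mg/kg and -2.19 at 70 mg/kg. Between the doses it was -2.80, with both probe sets past 2-fold (-4.00 and -1.60).

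Diablo, which frees caspases from their inhibitors, had a single probe set. It read 1125 with water, 149 at 35 mg/kg and 253 at 70 mg/kg. Here the control stood above both doses, and the low dose, below the floor, was the lowest of the 3 arrays. The difference was at least 5.97-fold lower at 35 mg/kg and -2.15 on the log2 scale at 70 mg/kg.

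The upstream sequence of these 3 genes is shown because they have the largest differences at 70 mg/kg, Mdm2 and Trib3 with a fall between the doses and Diablo without one. RefSeq promoter windows on the GRCr8 assembly were found by gene ID for 5 of the 6 genes. The 150 bases before the annotated start are printed 5′ to 3′ on the strand of the gene, with motif matches in capitals. The Mdm2 stretch is chr7:55200792-55200941 (minus strand), the Trib3 stretch chr3:161275534-161275683 (minus strand) and the Diablo stretch chr12:38716518-38716667 (plus strand).
Mdm2: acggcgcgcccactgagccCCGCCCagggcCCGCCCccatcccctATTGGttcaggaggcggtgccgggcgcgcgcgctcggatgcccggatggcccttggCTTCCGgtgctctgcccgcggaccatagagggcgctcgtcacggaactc
Trib3: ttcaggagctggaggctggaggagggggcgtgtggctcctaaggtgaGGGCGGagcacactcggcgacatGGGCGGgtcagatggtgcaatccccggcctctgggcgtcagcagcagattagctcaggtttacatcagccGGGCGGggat
Diablo: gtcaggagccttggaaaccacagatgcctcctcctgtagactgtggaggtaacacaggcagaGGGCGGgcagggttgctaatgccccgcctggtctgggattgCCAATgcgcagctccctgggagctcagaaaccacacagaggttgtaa

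Searched on both strands were the Sp1-type GC box GGGCGG, the CCAAT box, the TATA-type word TATAAA, the AP-1 word TGAGTCA, the C/EBP-ATF word TTGCATCA and the ETS word CGGAAG. In the printed Mdm2 stretch, GC boxes on the opposite strand begin 131 and 120 bases before the start, a CCAAT box on the opposite strand 105 bases and an ETS word on the opposite strand 49 bases before it. The Trib3 stretch holds GC boxes 103, 80 and 10 bases before the start. The Diablo stretch holds a GC box 88 bases and a CCAAT box 47 bases before the start. Over the 250 bases upstream, GGGCGG occurs in 32.4% of 27457 promoters, CCAAT in 34.3% and CGGAAG in 14.7%. TATAAA occurs in 13.1%, among them Trib3 and Bcl2, and TGAGTCA in 3.98%, among them Diablo; those of Trib3 and Diablo begin before the printed bases. TTGCATCA occurs in 0.656% and in none of the 5 windows of these genes. GC content of the printed stretch was 74.0% for Mdm2, 64.7% for Trib3 and 58.7% for Diablo. These matches describe the letters only.

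Bad, which promotes death by binding Bcl2 and its protective relatives, followed the order of Diablo on its brighter probe set. That probe set read 839 with water, 178 at 35 mg/kg and 245 at 70 mg/kg. Both doses lay below the control, the low dose under the floor. The gene was at least 4.45-fold lower at 35 mg/kg, and the log2 difference at 70 mg/kg was -1.78. The other Bad probe set lay below the floor on every array, at 105, 120 and 177, and gives no order.

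Bcl2, the founding inhibitor of mitochondrial death, had its highest values at 35 mg/kg on all 3 of its probe sets. The brightest, L14680_g_at, read 923 with water, 2287 at 35 mg/kg and 172 at 70 mg/kg, the last below the floor. This is 1.31 above water at the low dose and at least 4.90-fold below it at the high dose. Between the doses the same probe set was at least 12.1-fold lower at 70 mg/kg. A probe set from another sequence, S74122_s_at, read 501, 579 and 285, which is 0.21 at 35 mg/kg and -0.82 at 70 mg/kg, both under 2-fold. The dimmest read 169, 235 and 109 and was above the floor at 35 mg/kg alone. All 3 probe sets thus had the low dose highest. The 2 above the floor with water had their lowest value at 70 mg/kg, with sizes that differed widely, and the dimmest gives no order between water and 70 mg/kg. The gene-level difference, which rests on S74122_s_at alone at 70 mg/kg, was -0.82 and is the only one of the 6 that did not reach 2-fold; with a floor at the 25th percentile it was -1.62. Between the doses it was -1.02, and -0.89 with the values as deposited or a common trimmed mean, which is short of 2-fold.

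Ccnd1, the G1 cyclin, had 5 probe sets. The brightest read 5018 with water, 3652 at 35 mg/kg and 1628 at 70 mg/kg. Its log2 difference was -0.46 at the low dose, under 2-fold, and -1.62 at the high dose, and it stayed at or above the 94.1st percentile of each array. D14014_at read 423, 577 and 49.1, within 2-fold of water at the low dose (0.45) and at least 2.25-fold lower at 70 mg/kg. AI231257_at read 688, 159 and 164, low at both doses and at least 3.65-fold below water at each. D14014_g_at, from the same sequence as D14014_at, read 150, 328 and 253 and was lowest with water, and X75207_s_at stayed near the floor at 175, 138 and 190. Of the 5 probe sets, 3 had values at least 2-fold lower at 70 mg/kg and 2 did not. When the floor was set at the 25th percentile, so that more of them counted, the gene's difference at 70 mg/kg was -0.75.

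By which arrays were past 2-fold from water, the brightest probe sets of the genes therefore fall into separate shapes. Those of Mdm2, Trib3 and Ccnd1 were within 2-fold of water at 35 mg/kg and low at 70 mg/kg. Those of Diablo and Bad were low at both doses. That of Bcl2 was high at 35 mg/kg and low at 70 mg/kg. These shapes rest on 1 array per group. Genes with 2 or more probe sets measured at 70 mg/kg and with water numbered 490 over the whole table; their probe sets spanned a median of 1.40 on the log2 scale, and in 51.6% they had both signs. At 35 mg/kg the median span was 1.11, over 562 genes.

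Over the 3 arrays, the genes of most similar shape were sought among 2057 genes whose brightest probe set was above the floor on each array. Likeness was the Euclidean distance between log2 values centred on their own mean. Members were left out as neighbours, so the genes named are the nearest non-members, and members may lie as near to one another. Nearest to Mdm2 were the brain-type creatine kinase Ckb (distance 0.218; intensities 16834, 15572 and 922 in order of dose) and Tmem255b (0.277; 6065, 8514 and 332). Nearest to Trib3 were the clathrin light chain Cltb (0.255; 2380, 2626 and 206) and Ckb (0.263). Nearest to Ccnd1 were thrombomodulin, Thbd, an endothelial anticoagulant receptor (0.033; 7578, 5649 and 2534), and Ccdc88c (0.041; 872, 632 and 273). Diablo, Bad and Bcl2 could not be placed, because their brightest probe sets crossed the floor. Likeness over 3 arrays is a description only.

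The level of a probe set on the control array moved with its difference at 70 mg/kg. Of 143 probe sets above 4000 with water, the class of the brightest Mdm2 and Ccnd1 probe sets, 76.2% were at least 2-fold lower at 70 mg/kg and 5.59% higher, with a median difference of -2.01. Of 312 between 2000 and 4000, the class of Trib3, 62.8% were lower, with a median of -1.38. Of 639 between 1000 and 2000, the class of Diablo, 54.0% were lower, with a median of -1.15. Of 1092 between 500 and 1000, where Bad, Bcl2 and the second Mdm2 probe set lie, 45.0% were lower, with a median of -0.78. Among 2030 probe sets between the floor and 500, 10.5% were lower and 24.8% higher. A probe set less than 2-fold above the floor with water cannot be called lower, because values under the floor were raised to it. The low share in this class, and so part of the rise with control level, is therefore in part set by the floor. For the low dose, the class above 4000 had 42.7% lower, with a median of -0.78. Classed instead by their level at 70 mg/kg, 51.7% of the 58 probe sets above 4000 were higher than with water and 8.62% lower.

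**Figure D2:**
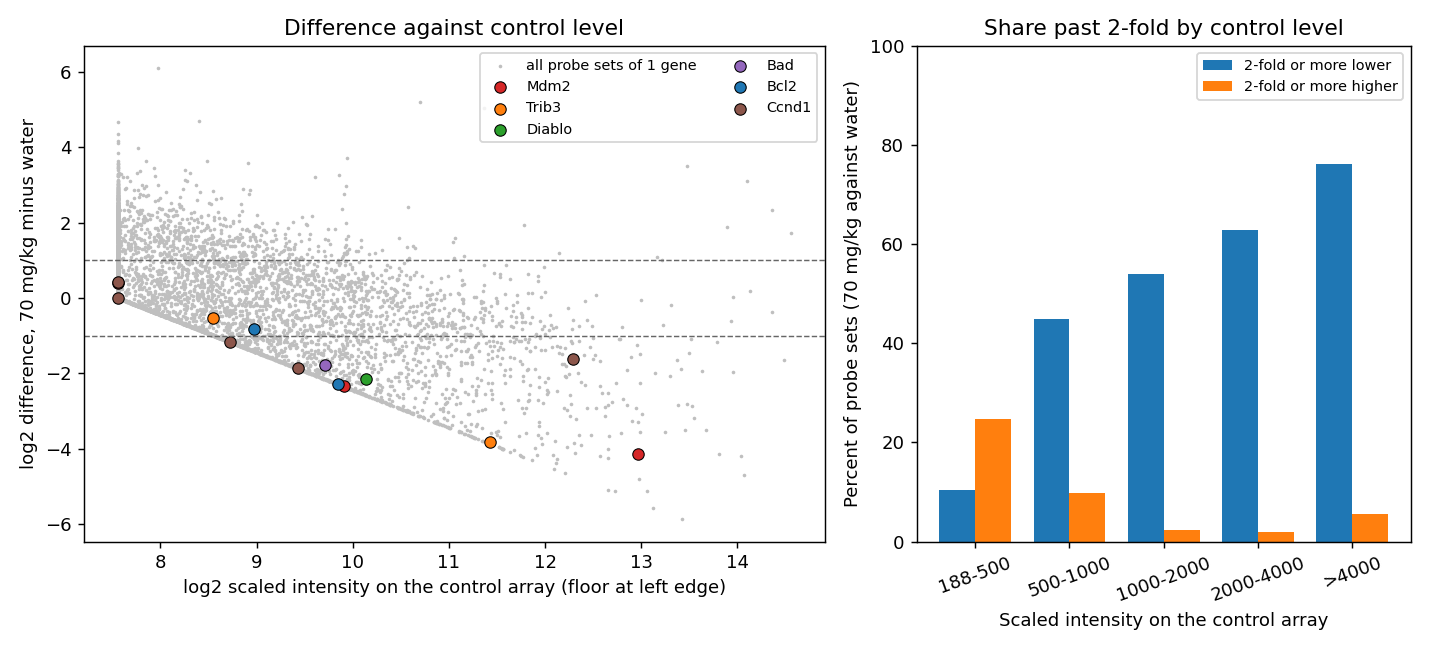
Left, log2 difference of 70 mg/kg minus water against log2 scaled intensity with water for each probe set of 1 gene above the floor on either array (values under the floor raised to it), with the 6 genes in colour and dashed lines at 2-fold; the diagonal edge is the floor at 70 mg/kg. Right, percent of probe sets at least 2-fold lower or higher in classes of control intensity, from 10.5% lower between 188 and 500 to 76.2% above 4000. Raising values to the floor limits how many probe sets of the lowest class can be lower.

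The arrays also differed as a whole. From the 5th to the 95th percentile, log2 values spanned 6.58 with water, 6.16 with the low dose and 5.22 with the high dose. The 9 hybridisation control probe sets for bacterial and phage transcripts were a median of 3.81 and 28.8 times as bright at the doses as with water. Smooth muscle markers, the tissue's defining genes, lay above the floor for 7, 6 and 6 of 8 with a probe set, and their brightest probe sets summed to 5086, 4199 and 6578. They moved both ways. Calponin (Cnn1) read 218, 633 and 1580 and smooth muscle actin (Acta2) 1613, 1325 and 2603, while transgelin (Tagln) read 922, 483 and 462, desmin (Des) 370, 85.5 and 149, the last pair below the floor, and Kcnmb1 818, 770 and 258. Summed in the same way, adipocyte markers gave 10712, 7220 and 3171 (7 genes, 4, 5 and 5 above the floor, Cfd below it on all arrays). Leptin (Lep) made up 8513, 4266 and 243 of these sums and Cidea 1351, 860 and 22.8. The other adipocyte markers above the floor on any array were higher at 70 mg/kg than with water, with Lpl at 354, 557 and 820, Ucp1 at 226, 627 and 970, Plin1 at 132, 703 and 463 and Fabp4 at 85.4, 62.6 and 472. Leukocyte markers gave 4940, 3447 and 4092 over 10 genes, with Csf1r and Itgam below the floor throughout. Ptprc read 127, 464 and 1294. At least 2-fold lower at 70 mg/kg were Lyz2 (818, 81.5 and 218), Cd4 (378, 242 and 82.5) and Cd8a (851, 142 and 109). Under 2-fold from water at 70 mg/kg were Cd14 (1675, 1590 and 1539), Cd74 (377, 604 and 342) and S100a9 (413, 188 and 330). S100a8 (233, 24.7 and 38.6) was above the floor with water only. Striated muscle markers gave 6600, 5014 and 4149 over 11 genes, with Tnni3 below the floor throughout. Endothelial markers gave 2157, 4566 and 3584 over 5 genes and had no shared order. Nos3 read 451, 2591 and 178 and Kdr 91.9, 144 and 1791. Pecam1 read 427, 436 and 598, Vwf 896, 910 and 819, and Edn1 291, 484 and 197. Fibroblast markers gave 25315, 65581 and 26658 over 5 genes, of which decorin (Dcn) made up 20940, 62304 and 16182, and the collagen gene Col1a1 read 338, 946 and 8777. Erythroid markers gave 555, 793 and 2126 over 3 genes and nerve markers 2980, 3282 and 3603 over 6, with Nefm below the floor throughout. In bulk tissue, fewer cells of a type and less RNA per cell cannot be told apart. The part of the control level, the array range and these markers in the members' differences was not tested.

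The other genes of these pathways came from 8 lists, and members are left out of the counts that follow. The medians of the lists at 70 mg/kg lay between -0.74 and 0.79. Beside their counts stand the shares over all genes measured, 19.7% higher and 23.2% lower at 70 mg/kg and 16.8% higher and 16.3% lower at 35 mg/kg. At 70 mg/kg most counts of these short lists, which take only genes measured on both arrays, lie near those shares. Genes that crossed the floor by at least 2-fold with no measured probe set stand apart. At 70 mg/kg such genes higher than with water numbered 4 in each of the stress response and S, G2 and M lists. The Akt list had 2. Lower ones numbered 1 in each of the BCL2, caspase, death receptor, Akt, G1 and S, G2 and M lists. At 35 mg/kg the higher ones numbered 2 in the stress response list and 1 in the S, G2 and M list. The lower ones at that dose numbered 2 in the caspase list and 1 in each of the BCL2, stress response and Akt lists. The share of such genes over all genes was not counted at either dose, so nothing is read from these counts. Among genes measured on both arrays, those higher at 35 mg/kg exceed the share in the p53, caspase, death receptor, stress response, Akt and G1 lists. They do not in the BCL2 family and S, G2 and M lists. The lists that exceed it hold 4 to 12 measured genes, with no test. In the caspase list it is 1 gene of 5, beside 1 measured gene lower, and Cdkn1a counts in both the p53 and G1 lists. Among genes of p53 control and p53 targets, 1 of 5 was at least 2-fold higher and 0 lower at 70 mg/kg, with a median of 0.42, and 2 of 4 were higher at 35 mg/kg, with a median of 1.17. Cdkn1a (p21), the cell cycle inhibitor that p53 induces, read 1104, 2865 and 742 on its brighter probe set, which is 1.38 at 35 mg/kg and -0.57 at 70 mg/kg. The order on this probe set, highest at the low dose, is that of Bcl2. The other Cdkn1a probe set read 204, 159 and 96.7, above the floor with water only. The ribosomal protein relative Rps27l was 1.10 higher at 70 mg/kg, and Btg1, a brake on proliferation, differed by 0.61.

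Gadd45a, a p53 target that responds to DNA damage, gave different values by its probe sets. By its only measured probe set it differed by 2.18 at 35 mg/kg and 0.42 at 70 mg/kg, with intensities of 251, 1140 and 335. Its other 3 probe sets lay below the floor with water and above it at 70 mg/kg. They read 144, 188 and 788, 153, 292 and 2724, and 12.8, 93.4 and 2213. By these, Gadd45a was at least 4.18-fold, 14.5-fold and 11.7-fold higher at 70 mg/kg.

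Of other BCL2 family genes, 1 of 6 was higher and 1 lower at 70 mg/kg, with a median of -0.12, and at 35 mg/kg 0 of 7 were higher and 1 lower. The death promoter Bcl2l11 (Bim) differed by -1.43 at 70 mg/kg on 2 probe sets (-2.21 and -0.65), and a further one was at least 3.80-fold lower. At 35 mg/kg its 3 measured probe sets ran from -1.86 to 1.08. The protective relative Bcl2l2 went the opposite way between doses, at -1.04 and then 1.05 (425, 206 and 881). Bid, which links death receptors to mitochondria, differed by -0.62 at 70 mg/kg, and Bok by -0.18.

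Downstream of mitochondria, 2 of 5 genes of caspase activation were higher and 1 lower at 70 mg/kg, with a median of 0.79. The mitochondrial cyclophilin Ppif, which takes part in the permeability transition, was higher by 1.83 (377, 341 and 1344). The initiator caspase Casp2 was higher at both doses on 1 probe set, by 1.52 and 1.26. Another Casp2 probe set read 104, 845 and 154, above the floor at 35 mg/kg only, and a further one lay below it throughout. The executioner Casp6 was lower at both doses on 1 probe set, by -2.17 and -1.52, and its other one lay below the floor throughout. Casp1, which matures interleukin precursors, differed by 0.79 on 1 probe set at 70 mg/kg and was at least 6.28-fold higher on another. Of death receptor genes, 1 of 3 was lower at 70 mg/kg, Tnfrsf21 at -1.21. The tumour necrosis factor receptor Tnfrsf1a was at -0.74 and Ngfr at 0.59 on 2 probe sets (-0.06 and 1.24). At 35 mg/kg 3 of 5 death receptor genes were higher and 1 lower. These included the decoy receptor osteoprotegerin (Tnfrsf11b) at 2.04 and Fas ligand (Faslg) at -1.37.

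Around Trib3, 1 of 7 stress response genes was higher and 2 lower at 70 mg/kg, with a median of 0.14, and 3 of 6 were higher and 0 lower at 35 mg/kg, with a median of 0.70. The amino acid transporter Slc7a5, a target of ATF4, was higher at both doses (1.22 and 1.30; 644, 1498 and 1582). The phosphatase subunit Ppp1r15a (Gadd34), which restores translation after stress, differed by 0.67 at 70 mg/kg. Phgdh, the entry enzyme of serine synthesis, was 1.29 higher at 35 mg/kg on 3 probe sets (0.08 to 1.31). At 70 mg/kg Nupr1, itself stress-induced, was at -1.45, and Eif2s1, the initiation factor that stress kinases phosphorylate, at -1.14. A further 4 genes of this list exceeded the floor by at least 2-fold at 70 mg/kg and did not reach it with water. The S, G2 and M list also had 4 such genes and the Akt list 2, each beside 1 gene crossing downward. No share over all genes was counted for such crossings, so nothing is read from their number.

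In Akt signalling and the adaptor proteins that hold phosphorylated Bad, 2 of 11 genes were higher and 2 lower at 70 mg/kg, with a median of 0.04. The adaptor Ywhag was higher by 2.38 (252, 467 and 1313). The Akt substrate Gsk3b was higher by 2.02 on 1 probe set and at least 2.61-fold lower on another. The Akt-inhibited factor Foxo1 differed by -1.72. The protein kinase A subunit Prkaca was at -1.69 on 1 probe set and at least 3.64-fold higher on another. At 35 mg/kg 3 of 12 genes of this list were higher and 1 lower, with Gsk3b at 1.21 and Prkaca at -1.51 on the same probe sets. The other probe sets again went the opposite way, Gsk3b at least 2.61-fold lower and Prkaca at least 3.34-fold higher.

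Among other genes of G1 control, 1 of 10 was higher and 1 lower at 70 mg/kg, with a median of -0.28, and 4 of 11 were higher and 2 lower at 35 mg/kg. Myc, a driver of growth and of cyclin D genes, was low at both doses (788, 244 and 198), at -1.69 and -1.99. The retinoblastoma protein gene Rb1, target of the cyclin D1 kinases, was higher by 1.80 at 70 mg/kg. The pocket protein Rbl2 was at -0.68 and the factor E2f5 at 0.96. Of genes for S, G2 and M phase, 2 of 9 were higher and 2 lower at 70 mg/kg, with a median of -0.01. The helicase subunit Mcm7 differed by -2.13 (2511, 1391 and 572). The replication clamp Pcna was at -1.94 on 1 probe set and at least 3.97-fold higher on another. The mitotic kinase Aurkb was at 1.55. Topoisomerase Top2a was at 1.44 on 2 probe sets (0.47 and 2.42), with a further Top2a probe set at least 5.63-fold lower. The low dose had 1 of 10 genes higher and 2 lower, with the phosphatase Cdc25a at -1.95 and the mitotic inhibitor kinase Wee1 at 1.86.

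**Figure D3:**
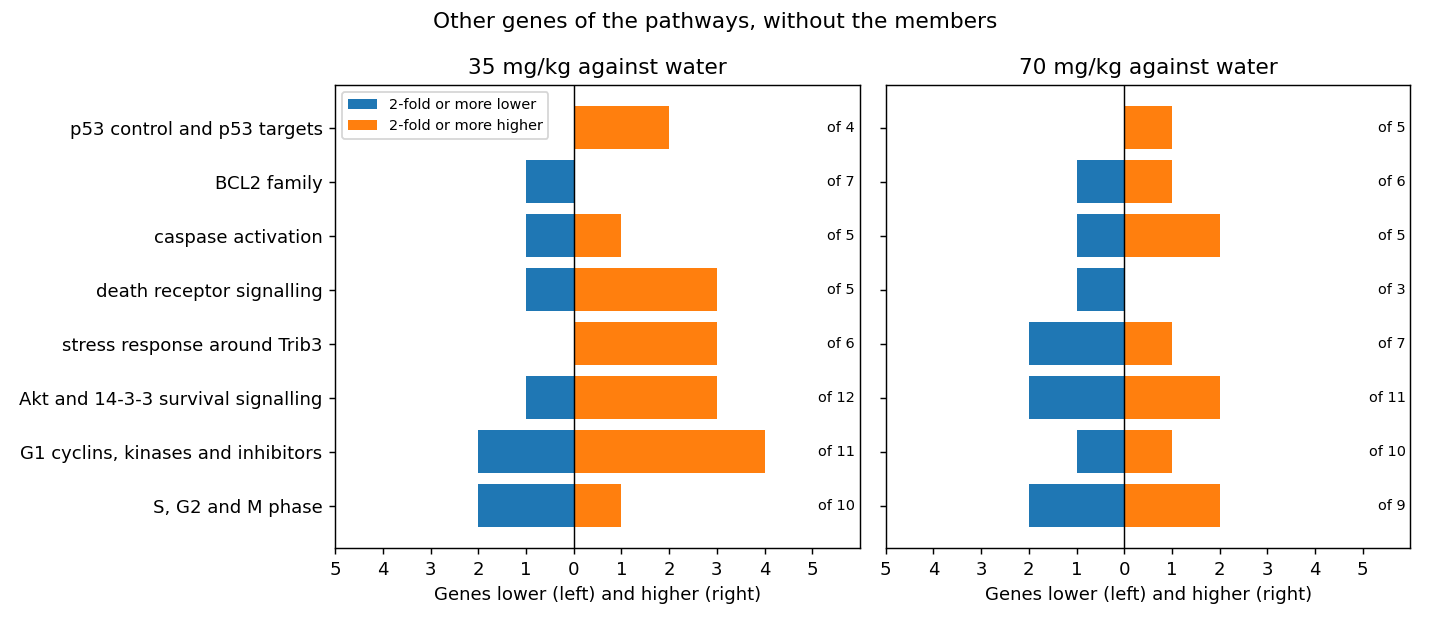
Number of genes of each pathway list, members left out, at least 2-fold lower (left of 0) or higher (right of 0) than with water, 35 mg/kg in the left panel and 70 mg/kg in the right; the number measured stands beside each bar. Only genes measured on both arrays are counted, and genes that crossed the floor are left out. Counted so, no list has more than 2 genes on either side at 70 mg/kg, beside 19.7% higher and 23.2% lower of all genes. The G1 list has 4 genes higher at 35 mg/kg.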

How the data were processed

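Thoracic aorta RNA of 3 groups was measured on 3 arrays. The authors' deposited table gives 1 linear intensity per probe set and array; the sources used here do not name the scanner software or scaling. Of 8799 probe sets, 59 controls were left out, 8740 kept. The platform annotation gives 1 symbol to 7006, several to 308 and none to 1426; 6985 matched the GRCr8 RefSeq gene table by gene ID, with 0 symbols changed. Arrays were scaled to a common median (log2 shifts 0.06, 0.04 and -0.09 for water, 35 and 70 mg/kg), values under the 40th percentile (188) raised to it, and log2 taken. Genes above the floor on 1 array only are bounds against it. No test was possible with 1 array per group.

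The members and the 8 pathway and 8 cell type lists were chosen with earlier results of these data known. The text names all members and the non-members of each pathway list with the largest differences (at most 4 for the high dose, 2 for the low dose). It also names the 2 non-members nearest to each member that could be placed. The calculation was tested on simulated data with known changes. There all probe sets of a gene shifted together with little added noise, unlike the probe sets here. It therefore checks the arithmetic and not how reliable the 2-fold calls are. Alternatives were other scalings, floors, probe set summaries and, added after seeing the data, leaving out less specific probe sets. Python 3.11.15, numpy 2.4.6, pandas 2.3.3 and matplotlib 3.10.9 were used.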

Additional observations from a re-analysis of the deposited data

How the results depend on the processing

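The direction of each member's difference at 70 mg/kg was the same under every alternative that gave it a value. The 5 members lower at 70 mg/kg became 2 when the floor was the 55th percentile, leaving 2 members measured, and 3 without less specific probe sets, which left 3. At 35 mg/kg, members lower went from 0 to 2 when the floor was the 5th or 25th percentile, and members higher from 0 to 1 with the brightest probe set per gene or without less specific probe sets, and to 2 counting each probe set by itself. Between the doses, members lower went from 3 to 5 counting each probe set by itself and to 1 without less specific probe sets, where Mdm2 was at -0.36. They were 2 with the values as deposited and with a common trimmed mean, where Bcl2 ended at -0.89, and 2 with a floor at the 55th percentile, where Trib3 and Bcl2 had no value and Ccnd1 was at -1.17. With a floor at the 5th percentile Bad at 70 mg/kg was at -0.51. Genes past 2-fold in either direction numbered 2239 (70 mg/kg against water), 1834 (35 mg/kg) and 2043 (between doses) with a floor at the 5th percentile and 589, 550 and 510 at the 55th; between the doses they were 1379 at the 25th. More or fewer genes tested accounts for part of these changes by construction. The share higher among 2-fold differences at 70 mg/kg was 46.0%, and 51.1% with the values as deposited. The median of the p53 list between the doses, -1.81 with its members, was 0.049 with a floor at the 5th percentile; the cause was not tested. Of 100 other values for single members, 90 kept their side of 2-fold, as did 180 of 191 list medians taken with their members. A change of sign under 2-fold counts as kept here. The list medians without members, as printed above, were not recalculated under the alternatives. No paired analysis was possible because each group has 1 array.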
